A study of Mus musculus with 23 samples.

Results

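Oligodendrocyte precursor genes were followed in mouse hippocampal RNA through 10 named members: Pdgfra, Cspg4, Olig1, Olig2, Gpr17, C1ql1, Vcan, Lhfpl3, Sox8 and Ptprz1. They were taken by gene symbol from 2 tables of 39017 genes each. Of the 10 members, 9 had a row in both tables, and Lhfpl3 was not analysed here. All 9 passed the filter on low values, a mean of at least 0.5 RPKM (read density scaled for gene length and for the size of the library), in every comparison. The values come from 75-base single-end sequencing of polyadenylated RNA from whole hippocampi, in 20 libraries of 4 groups with 5 libraries each. The groups were Nrsn2 knockout-labelled mice after chronic social defeat stress (CSDS), knockout-labelled controls, WT mice after CSDS and WT controls. In CSDS a mouse met an unfamiliar aggressive CD-1 mouse for 5 min on each of 10 days and was then housed beside it behind a divider. No source used here gives the strain, age or sex of the mice or says how Nrsn2 was deleted. A further 3 libraries (WT 9B, knockout-labelled 11 and knockout-labelled 10B) have a title that names control and a treatment field that names CSDS, and were left out of the groups.

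Oligodendrocyte precursors are the dividing glial cells from which myelinating oligodendrocytes arise, and they persist throughout the adult brain. They carry the receptor for platelet-derived growth factor A on their surface, surround themselves with chondroitin sulphate proteoglycans and receive synapses from neurons. As a precursor commits to become an oligodendrocyte it loses Pdgfra and Cspg4 and passes through a stage that expresses Gpr17, while Olig1, Olig2 and Sox10 stay on in the later cells. In whole hippocampus these genes therefore report a small share of the tissue, and several are shared with other cells: Pdgfra with fibroblasts of the meninges and vessel walls, Cspg4 with pericytes, and Ptprz1 with astrocytes. Since each library is bulk tissue, fewer cells of a type and less RNA per cell cannot be told apart.

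The libraries were deep enough to measure every member. Estimated depth was 25.62 to 55.62 M reads over the 23 libraries, with a median of 44.64 M, and the groups' ranges overlapped. C1ql1 rested on the fewest reads, about 97 to 298 per library, and Ptprz1 on the most, about 6830 to 14683. RNA of Nrsn2, the gene that the genotype label names, was not lower in the libraries labelled knockout. It averaged 34.1 ± 2.34 RPKM in knockout-labelled CSDS libraries and 29.7 ± 2.55 RPKM in WT CSDS libraries (SD, n = 5 each). Among controls it averaged 31.2 ± 1.93 RPKM in knockout-labelled libraries and 29.1 ± 2.42 RPKM in WT libraries. The log2 differences, 0.20 after CSDS and 0.10 among controls, did not pass the test used below (adjusted p = 0.127 and 0.437, limma). As no source used here says how Nrsn2 was deleted, the RNA level of the whole gene cannot decide whether the label is right. The genotype is therefore given below as a label only.

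In the mm10 build, as deposited, Pdgfra spans chr5:75152292-75198215 on the + strand, Cspg4 chr9:56865033-56899870 (+), Vcan chr13:89655312-89742509 (-), Ptprz1 chr6:22875502-23052916 (+) and C1ql1 chr11:102939264-102946688 (-). Olig1 (chr16:91269772-91271933, +) and Olig2 (chr16:91225457-91228677, +) are neighbours on chromosome 16, Sox8 lies at chr17:25565892-25570686 (-) and Gpr17 at chr18:31942997-31949636 (-). The library kit does not mark strand, so reads of overlapping genes cannot be told apart: Gpr17 lies inside Lims2, Sox8 overlaps 2810468N07Rik, C1ql1 lies inside Gm26668 and the microRNA gene Mir7025 lies inside Pdgfra. None of these 4 partners passed an adjusted p of 0.05 with CSDS in either genotype, which does not show that they stayed level. The smallest adjusted p values were in knockout-labelled CSDS, for Lims2 (log2 fold change -0.21 ± 0.07, adjusted p = 0.0647, limma) and Gm26668 (0.15 ± 0.05, adjusted p = 0.0860). Mir7025 rested on only about 17 to 73 reads per library. The part of the partners' reads in the member values was not tested.

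The promoters of the 5 members that passed the test with CSDS in WT mice are shown, 4 of them higher and 1, Sox8, lower. The Sox8 call was kept in only 1 of 10 fits that left out 1 library, and the Vcan call in 6 of 10. The sequences are the 250 bases before the RefSeq transcription start in GRCm38.p6, 5′ to 3′ on the gene's own strand. Capitals mark each match to GGGCGG or its reverse complement CCGCCC, the GC-box bound by Sp-family factors. The windows are chr5:75152001-75152250 (+ strand) for Pdgfra, chr9:56864854-56865103 (+ strand) for Cspg4, chr13:89742513-89742762 (- strand) for Vcan, chr6:22875252-22875501 (+ strand) for Ptprz1 and chr17:25570687-25570936 (- strand) for Sox8. The deposited Cspg4 gene starts earlier than its RefSeq start, at 56865033, so the end of its window lies inside the deposited gene.

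Pdgfra: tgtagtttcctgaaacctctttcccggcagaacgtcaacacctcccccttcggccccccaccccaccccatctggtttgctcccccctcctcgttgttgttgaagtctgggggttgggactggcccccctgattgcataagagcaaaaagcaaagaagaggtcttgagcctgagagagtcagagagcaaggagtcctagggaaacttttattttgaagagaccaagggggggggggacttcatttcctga

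Cspg4: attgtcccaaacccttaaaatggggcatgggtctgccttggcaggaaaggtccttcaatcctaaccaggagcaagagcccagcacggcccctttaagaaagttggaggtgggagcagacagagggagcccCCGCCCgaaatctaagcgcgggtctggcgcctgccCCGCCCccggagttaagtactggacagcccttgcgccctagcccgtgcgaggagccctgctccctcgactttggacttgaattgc

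Vcan: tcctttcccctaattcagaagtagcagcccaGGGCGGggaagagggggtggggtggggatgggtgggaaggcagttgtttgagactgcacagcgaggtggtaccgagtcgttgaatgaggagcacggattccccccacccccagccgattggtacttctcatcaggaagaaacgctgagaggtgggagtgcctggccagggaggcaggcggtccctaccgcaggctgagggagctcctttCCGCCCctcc

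Ptprz1: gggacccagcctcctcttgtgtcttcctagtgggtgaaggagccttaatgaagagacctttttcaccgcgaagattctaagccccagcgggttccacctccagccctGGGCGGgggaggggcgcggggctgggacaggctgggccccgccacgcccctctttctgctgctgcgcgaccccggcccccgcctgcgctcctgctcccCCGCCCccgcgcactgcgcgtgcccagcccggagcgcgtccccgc

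Sox8: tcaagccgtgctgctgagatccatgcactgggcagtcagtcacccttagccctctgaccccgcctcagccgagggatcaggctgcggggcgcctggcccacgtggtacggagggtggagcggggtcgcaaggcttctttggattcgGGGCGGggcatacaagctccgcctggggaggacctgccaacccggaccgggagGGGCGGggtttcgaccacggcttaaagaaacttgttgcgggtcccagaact

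The RefSeq promoter table held 6 of the 9 measured members, these 5 and Olig2. The end of the Olig2 window likewise lies inside the deposited gene. A GC-box stood in 5 of the 6, with 2 copies each in Cspg4, Vcan, Ptprz1, Sox8 and Olig2 and none in Pdgfra, against 32.7% of all 32851 promoters of the same length. The 4 genes called higher thus did not all share this motif, and Sox8, called lower, held it too. An E-box (CANNTG), the letters that OLIG proteins and other basic helix-loop-helix factors bind, stood in 3 of 6 (Pdgfra, Vcan and Sox8) against 66.2% of all promoters. ACAAAG, a SOX-type motif, was in 0 of 6 against 16.5%, and TATAAA was in 1 of 6 (Olig2) against 12.4%. Each motif was searched on both strands, and the letters of no motif match those of another. GC content of the 6 ran from 54.4% in Pdgfra to 71.6% in Ptprz1, against a median of 52.4% over all promoters.

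Members differed widely in level and little between libraries. On the RPKM scale, medians over the 20 libraries ran from 37.8 for Olig1 and 32.0 for Ptprz1, through 10.0 for Pdgfra, 9.97 for Sox8, 9.92 for Gpr17 and 7.51 for Olig2, to 3.08 for C1ql1, 2.45 for Cspg4 and 2.00 for Vcan. Pdgfra, Sox8 and Gpr17 overlapped in range and have no clear order. The highest library was 1.24 times the lowest for Olig1 and Sox8 and 1.90 times for Gpr17, the most variable member. Between group means the widest ratio was 1.26, for Pdgfra. Folds below are differences of log2(RPKM + 0.5), which understate the change of low genes, with the standard error of the limma fit.

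**Figure D1:**
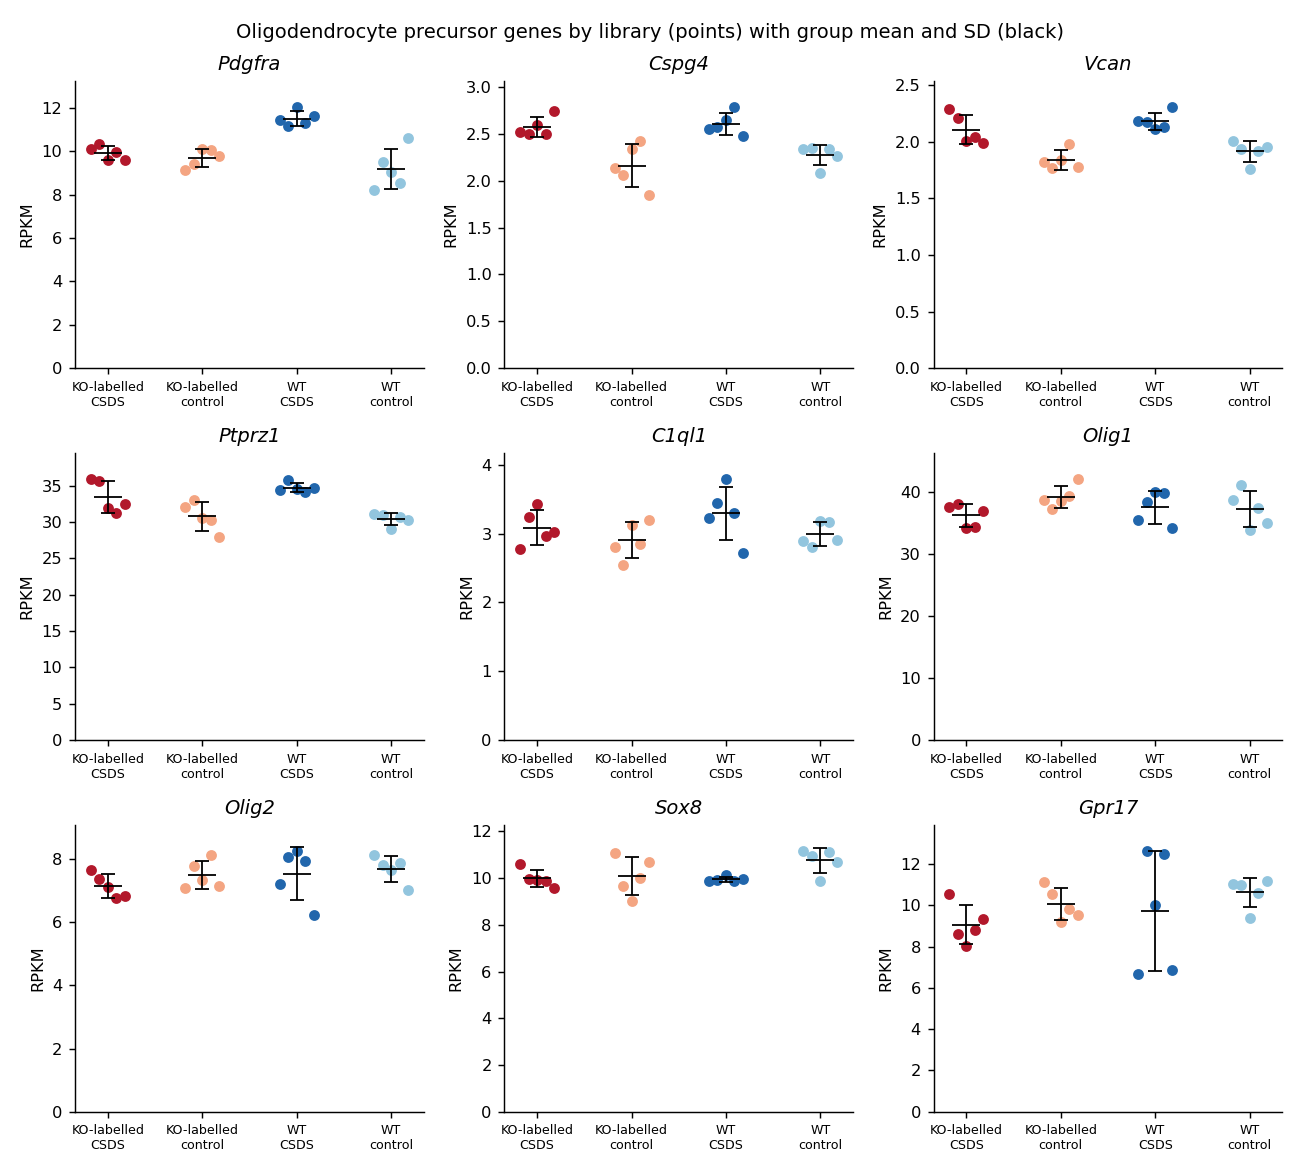
RPKM of the 9 measured members in each of 20 libraries (points), with the mean and SD of 5 libraries per group in black and each axis starting at 0. WT CSDS libraries stand above all WT controls for Pdgfra, Cspg4, Vcan and Ptprz1, as they do for 7.49% of all genes. Gpr17 is split within WT CSDS libraries.

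Between CSDS and control, Cspg4 was the only member that passed the test in knockout-labelled mice, and it was higher after CSDS. In WT mice CSDS came with higher RNA of Pdgfra, Cspg4, Vcan and Ptprz1 and lower RNA of Sox8, while Olig1, Olig2, Gpr17 and C1ql1 did not pass. At an adjusted p of 0.05 (limma, Benjamini-Hochberg over all genes tested), 1 of 9 members rose in knockout-labelled CSDS, where 6.17% of all 18259 genes rose. In the same comparison 0 of 9 members fell (limma; 1, Olig1, at an unadjusted p of 0.05), against 8.88% of all genes. In WT CSDS 4 of 9 rose and 1 fell, where 9.88% of 18274 genes rose and 12.5% fell. The share called in either direction was 15.0% of all genes in knockout-labelled mice and 22.4% in WT mice. The median log2 fold change of the 9 members was 0.03 in knockout-labelled mice, against -0.0067 over all genes, and 0.12 in WT mice, against -0.0017 over all genes.

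**Figure D2:**
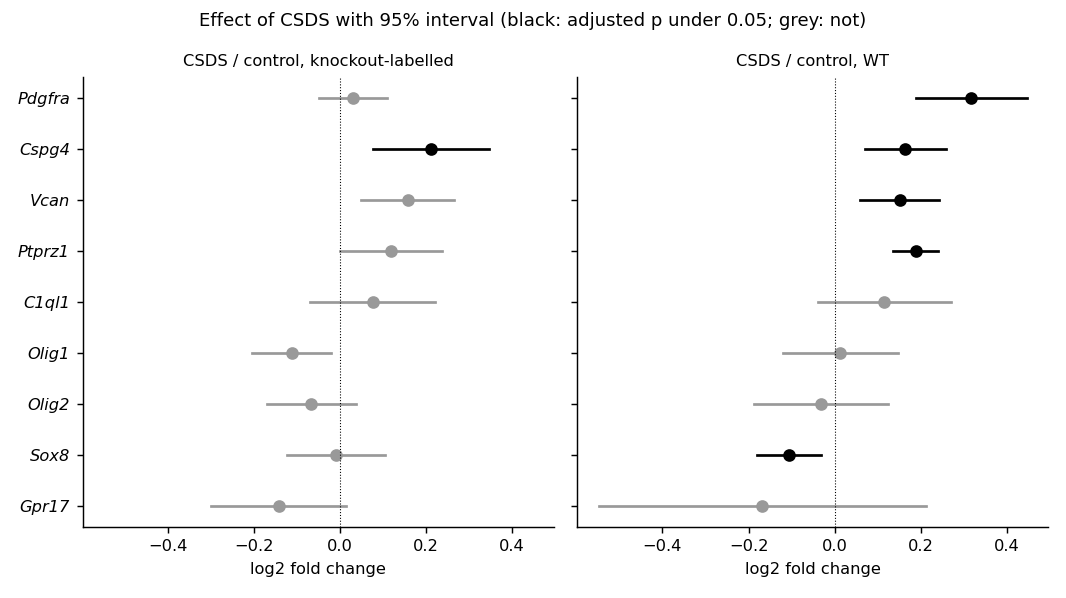
Log2 fold change of CSDS over control for each member, with its 95% interval, in knockout-labelled mice (left) and WT mice (right); black marks an adjusted p under 0.05. Cspg4 is black in both panels, and Pdgfra is at 0.03 in knockout-labelled mice and 0.32 in WT mice.

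Pdgfra encodes the platelet-derived growth factor receptor alpha, which drives precursors to divide and is their most used surface marker. Knockout-labelled CSDS libraries had 10.1, 10.3, 9.58, 9.96 and 9.60 RPKM, and knockout-labelled controls 9.12, 9.43, 10.1, 10.1 and 9.79 RPKM. Here the groups overlapped. CSDS over control gave a log2 fold change of 0.03 (95% interval -0.05 to 0.11, adjusted p = 0.609, limma). WT CSDS libraries had 11.4, 11.2, 12.04, 11.3 and 11.6 RPKM, and WT controls 8.20, 9.49, 9.04, 8.55 and 10.6 RPKM. Every WT CSDS library lay above every WT control, of which number 10 was the highest, and groups that do not overlap with CSDS higher were found for 7.49% of all genes. The log2 fold change was 0.32 ± 0.06 (adjusted p = 0.0045, limma), and it passed without any 1 of the 10 libraries. With WT 9B, at 8.40 RPKM, counted as a CSDS library the call was lost (adjusted p = 0.102). By the SD of log2 differences between libraries, WT 9B was closest to WT control 9 (0.108). The same measure was 0.173 to WT CSDS 2, its closest WT CSDS library, and 0.231 to WT control 10. In the authors' deposited table, whose log2 fold changes run control over CSDS, Pdgfra had -0.08 in knockout-labelled mice with a false discovery rate of 0.315, and -0.35 in WT mice with a rate of 5.62e-08. Those rates come from another test, edgeR, and the authors' control means include the libraries of conflicting labels. This applies wherever their table is cited below.

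Fibroblast markers, which mark another source of Pdgfra, varied between the same libraries. The 12 markers together summed to 39.1 to 72.9 RPKM in knockout-labelled CSDS libraries, 66.9 to 131 RPKM in knockout-labelled controls, 74.8 to 110 RPKM in WT CSDS libraries and 33.6 to 136 RPKM in WT controls. In knockout-labelled CSDS 8 of 12 fell, against 8.88% of all genes, with a median log2 fold change of -0.76, where Pdgfra had 0.03. In WT CSDS 0 of 12 passed the test (limma), against 22.4% of all genes, with a median of 0.42, where Pdgfra had 0.32. At an unadjusted p of 0.05, 2 markers were higher there and 0 lower, against 3050 and 3566 of all 18274 genes. Dcn, the fibroblast proteoglycan decorin, fell by 0.79 ± 0.07 on the log2 scale in knockout-labelled CSDS (adjusted p = 0.000252) and had a log2 fold change of 0.05 in WT CSDS (adjusted p = 0.881). No fibroblast marker was at 0 in any library. WT control 10, with the highest Pdgfra of the WT controls, also had the highest marker sum, 136 RPKM, and WT control 6, with the lowest Pdgfra, had the lowest, 33.6 RPKM. WT CSDS 2, at a marker sum of 74.8 RPKM, had 11.2 RPKM of Pdgfra, while WT control 8, at 95.5 RPKM, had 9.04 RPKM. WT CSDS 1 to 5 had sums of 88.2, 74.8, 102.5, 86.4 and 110 RPKM and Pdgfra of 11.4, 11.2, 12.04, 11.3 and 11.6 RPKM. Knockout-labelled controls 6 to 10 had sums of 81.7, 66.9, 111, 131 and 117 RPKM and Pdgfra of 9.12, 9.43, 10.1, 10.1 and 9.79 RPKM. Knockout-labelled CSDS 1 to 5 had sums of 52.3, 39.1, 72.9, 60.5 and 61.3 RPKM and Pdgfra of 10.1, 10.3, 9.58, 9.96 and 9.60 RPKM. The part of fibroblast RNA in the Pdgfra result was not tested.

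Cspg4 encodes NG2, the membrane proteoglycan that gives precursors their other common name, NG2 glia. Knockout-labelled CSDS libraries had 2.52, 2.50, 2.60, 2.50 and 2.75 RPKM, and knockout-labelled controls 2.13, 2.06, 2.34, 2.42 and 1.85 RPKM. WT CSDS libraries had 2.56, 2.58, 2.65, 2.79 and 2.48 RPKM, and WT controls 2.34, 2.35, 2.09, 2.34 and 2.27 RPKM. In both genotypes all 5 CSDS libraries lay above all 5 controls. Groups that do not overlap with CSDS higher were found for 5.45% of all genes in knockout-labelled mice and 7.49% in WT mice. The log2 fold change was 0.21 ± 0.06 in knockout-labelled mice (adjusted p = 0.0401, limma) and 0.16 ± 0.04 in WT mice (adjusted p = 0.0213). The knockout-labelled call was kept in 3 of 10 fits that left out 1 library, without control 8, 9 or 10, and the adjusted p ran from 0.0311 to 0.0866 over the 10. The WT call was kept in all 10 such fits, and was lost with WT 9B, at 2.10 RPKM, counted as CSDS (adjusted p = 0.200). In the authors' deposited table the false discovery rate of Cspg4 was 0.000193 in knockout-labelled mice and 0.0133 in WT mice.

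Pericytes also express Cspg4, so pericyte and vascular markers are given beside it. Their 12 genes summed to 69.9 to 92.6 RPKM in knockout-labelled CSDS libraries, 91.8 to 121 RPKM in knockout-labelled controls, 83.9 to 109 RPKM in WT CSDS libraries and 76.5 to 110 RPKM in WT controls. In knockout-labelled CSDS 0 of 12 rose and 4 fell, where 6.17% of all genes rose and 8.88% fell. Among the 4 were the endothelial tight-junction gene Cldn5 (-0.82 ± 0.10, adjusted p = 0.000996) and the endothelial cadherin gene Cdh5 (-0.38 ± 0.06, adjusted p = 0.00327). The list mixes pericyte, smooth muscle and endothelial genes. Its median log2 fold change was -0.29 in knockout-labelled mice and -0.02 in WT mice. In WT CSDS, where 9.88% of all genes rose and 12.5% fell, the smooth muscle genes Tagln (0.73 ± 0.16, adjusted p = 0.0109) and Acta2 (0.57 ± 0.15, adjusted p = 0.0258) rose. Cldn5 fell there by 0.48 on the log2 scale (adjusted p = 0.00129). Rgs5, a defining pericyte gene, had log2 fold changes of -0.09 in knockout-labelled mice (adjusted p = 0.320) and 0.08 in WT mice (adjusted p = 0.219). None of the 12 was at 0 in any library, and their part in the Cspg4 result was not tested.

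Vcan encodes versican, a secreted chondroitin sulphate proteoglycan made by precursors. Knockout-labelled CSDS libraries had 2.29, 2.21, 2.01, 2.04 and 1.99 RPKM, and knockout-labelled controls 1.82, 1.77, 1.84, 1.98 and 1.78 RPKM. WT CSDS libraries had 2.18, 2.17, 2.11, 2.13 and 2.31 RPKM, and WT controls 2.01, 1.94, 1.76, 1.92 and 1.95 RPKM. In both genotypes the CSDS libraries lay above the controls, in knockout-labelled mice by a narrow gap between 1.99 and 1.98 RPKM. Such groups were found for 5.45% of all genes in knockout-labelled mice and 7.49% in WT mice. The log2 fold changes were close, 0.16 ± 0.05 in knockout-labelled mice (adjusted p = 0.0524, limma) and 0.15 ± 0.04 in WT mice (adjusted p = 0.0267), with the threshold between them. The WT call was kept in 6 of 10 fits that left out 1 library and was lost without CSDS 1 or 5 or control 8 or 9 (adjusted p 0.0512 to 0.0624). With each library centred on its median, Vcan passed in knockout-labelled mice too (adjusted p = 0.0446). In the authors' deposited table its false discovery rate was 0.00197 in knockout-labelled mice and 0.0276 in WT mice.

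Ptprz1 encodes a receptor-type tyrosine phosphatase that carries chondroitin sulphate chains and binds pleiotrophin and contactin 1. Knockout-labelled CSDS libraries had 35.9, 35.6, 31.9, 31.3 and 32.5 RPKM, and knockout-labelled controls 32.0, 33.0, 30.5, 30.3 and 27.9 RPKM. CSDS 1 and 2 stood apart and the other 3 libraries fell among the controls. There CSDS had a log2 fold change of 0.12 (95% interval 0.0011 to 0.24, adjusted p = 0.161). WT CSDS libraries had 34.4, 35.8, 34.6, 34.1 and 34.6 RPKM, and WT controls 31.0, 30.9, 29.1, 30.7 and 30.3 RPKM. The WT groups did not overlap, and 7.49% of all genes had such groups with CSDS higher. Ptprz1 had the smallest adjusted p of the members there, with a log2 fold change of 0.19 ± 0.02 (adjusted p = 0.000861, limma). It passed without any 1 library. Of 12 astrocyte markers, whose cells also express Ptprz1, 3 rose and 3 fell in knockout-labelled CSDS and 4 rose and 1 fell in WT CSDS. Of all genes, 6.17% rose and 8.88% fell in the first comparison, and 9.88% rose and 12.5% fell in the second. The median log2 fold change of the 12 markers was 0.03 in knockout-labelled mice and 0.13 in WT mice, where Ptprz1 had 0.12 and 0.19. Their sums were 740 to 832 RPKM in knockout-labelled CSDS libraries, 757 to 796 RPKM in knockout-labelled controls, 747 to 866 RPKM in WT CSDS libraries and 706 to 802 RPKM in WT controls, with no marker at 0. Aqp4, the astrocyte water channel, fell by 0.33 on the log2 scale in knockout-labelled CSDS (adjusted p = 0.0121) and by 0.14 in WT CSDS (adjusted p = 0.0148). It is named as the defining marker of the list and was the only 1 of the 12 that fell in WT CSDS. The part of astrocyte RNA in the Ptprz1 result was not tested.

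C1ql1 encodes a secreted C1q-like protein that binds the adhesion receptor Adgrb3. It did not pass the test in either genotype. Knockout-labelled CSDS libraries ran from 2.77 to 3.43 RPKM with a median of 3.03, and knockout-labelled controls from 2.54 to 3.20 RPKM with a median of 2.84. WT CSDS libraries ran from 2.72 to 3.79 RPKM with a median of 3.31, and WT controls from 2.81 to 3.19 RPKM with a median of 2.91. The log2 fold changes were 0.08 (95% interval -0.07 to 0.22) in knockout-labelled mice and 0.12 (-0.04 to 0.27) in WT mice, intervals that hold the sizes seen for Cspg4 and Vcan.

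Among the transcription factors, Olig1 and Olig2, the basic helix-loop-helix factors of the whole oligodendrocyte lineage, did not pass the test in either genotype. Olig1 had 37.6, 38.1, 34.2, 34.4 and 37.0 RPKM in knockout-labelled CSDS libraries, against 38.7, 37.3, 38.6, 39.3 and 42.2 RPKM in knockout-labelled controls. The log2 fold change was -0.11 ± 0.04 (unadjusted p = 0.0214, adjusted p = 0.0962, limma), and the groups overlapped through CSDS 1 and 2. In WT mice it was 0.01 (95% interval -0.12 to 0.15), with 34.2 to 40.1 RPKM in CSDS libraries and 34.0 to 41.1 RPKM in controls. Olig2 ran from 6.75 to 7.65 RPKM in knockout-labelled CSDS libraries and from 7.09 to 8.14 RPKM in knockout-labelled controls, a log2 fold change of -0.07 (-0.17 to 0.04). In WT mice Olig2 ran from 6.23 to 8.26 RPKM in CSDS libraries and from 7.01 to 8.11 RPKM in controls, a log2 fold change of -0.03 (-0.19 to 0.12). These intervals exclude a rise of the size of Pdgfra in WT CSDS for both genes.

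Sox8 encodes a SoxE factor related to Sox10 that acts in oligodendrocyte differentiation. Knockout-labelled CSDS libraries had 10.6, 9.98, 9.93, 9.90 and 9.60 RPKM, and knockout-labelled controls 11.1, 9.68, 9.03, 10.0 and 10.7 RPKM. They overlapped, with a log2 fold change of -0.01 (95% interval -0.12 to 0.10). WT CSDS libraries had 9.89, 9.92, 10.1, 9.86 and 9.96 RPKM, and WT controls 11.2, 10.9, 9.86, 11.1 and 10.7 RPKM. The WT CSDS libraries were nearly alike and lay below 4 of the 5 controls, while control 8 reached down to them. With a log2 fold change of -0.11 ± 0.03 (adjusted p = 0.0459, limma) Sox8 passed. The call was lost in 9 of 10 fits that left out 1 library (adjusted p up to 0.104) and was kept without WT control 8 (adjusted p = 0.0057). It was also lost with each library centred on its median (adjusted p = 0.132), and in the authors' deposited table the false discovery rate was 0.112.

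Gpr17 encodes a G protein-coupled receptor of the stage between precursor and myelinating cell. Knockout-labelled CSDS libraries had 10.6, 8.60, 8.05, 8.79 and 9.36 RPKM, and knockout-labelled controls 11.1, 10.5, 9.19, 9.82 and 9.56 RPKM, and these groups overlapped. WT CSDS libraries had 6.67, 12.6, 10.0, 12.5 and 6.85 RPKM, and WT controls 11.0, 11.0, 9.40, 10.6 and 11.2 RPKM. WT CSDS 1 and 5 lay below every other library of the 4 groups, while WT CSDS 2 and 4 lay above every other. The coefficient of variation was 29.9% in WT CSDS libraries, and between 6.74% and 10.5% in the other 3 groups. The log2 fold change was -0.14 (95% interval -0.30 to 0.01, adjusted p = 0.207, limma) in knockout-labelled mice and -0.17 (-0.55 to 0.21, adjusted p = 0.512) in WT mice. Lims2, the gene that Gpr17 lies inside, had 6.12 and 6.00 RPKM in WT CSDS 1 and 5, against 7.13 to 7.75 RPKM in the other WT CSDS libraries.

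The genotype label was set against WT separately after CSDS and among controls, to ask whether precursor genes differ with Nrsn2 genotype. After CSDS 1 of 9 members was lower in knockout-labelled mice and 0 were higher, where 0.734% of 18263 genes were lower and 1.51% higher, 2.24% in all (limma over all 20 libraries). That member was Pdgfra, with 9.92 ± 0.33 RPKM in knockout-labelled CSDS libraries and 11.5 ± 0.34 RPKM in WT CSDS libraries (SD, n = 5 each). The highest knockout-labelled library, 10.3 RPKM, lay below the lowest WT library, 11.2 RPKM; 2.47% of all genes had groups that did not overlap in this direction. This gave a log2 fold change of -0.21 ± 0.05 (adjusted p = 0.0327, limma). The call was lost without any 1 of 8 libraries, numbers 1, 3, 4 or 5 of either CSDS group, with the adjusted p reaching 0.0870, and the log2 fold change stayed between -0.22 and -0.19 over all 20 fits that left out 1 library. It was also lost with no filter on low values (adjusted p = 0.0544), with the libraries of conflicting labels counted as CSDS (adjusted p = 0.161) and, in an alternative chosen after seeing the data, with WT CSDS 1 and 5 averaged as 1 library (adjusted p = 0.0650). Among the fibroblast markers 11 of 12 were lower at an unadjusted p of 0.05 (limma), against 1273 of all 18263 genes. Of the 12, 1 (Lum, -0.77 ± 0.19, adjusted p = 0.0398) passed, with a list median of -0.75. The part of fibroblast RNA in the Pdgfra difference was not tested.

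Among controls 0 of 9 members passed, where 3.95% of all genes did, and 0 had an unadjusted p under 0.05. Pdgfra averaged 9.70 ± 0.42 RPKM in knockout-labelled controls and 9.17 ± 0.93 RPKM in WT controls, a log2 fold change of 0.08 (95% interval -0.02 to 0.18). Sox8 had the smallest p, with 10.1 ± 0.81 RPKM in knockout-labelled controls and 10.8 ± 0.54 RPKM in WT controls and a log2 fold change of -0.09 (-0.18 to 0.0026, adjusted p = 0.285). All 9 members overlapped between the control groups. Groups without overlap in either direction made up 4.96% of all genes.

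**Figure D3:**
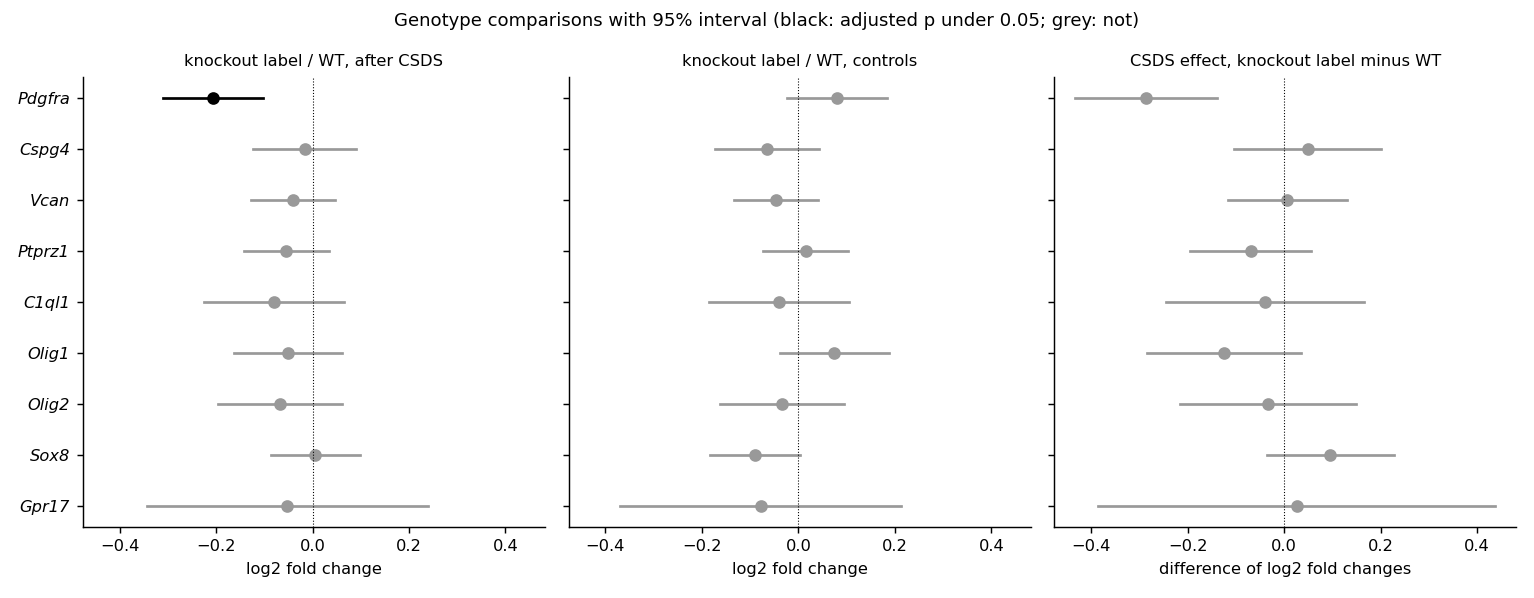
Log2 fold change of knockout-labelled over WT after CSDS (left) and among controls (middle), and the CSDS effect in knockout-labelled minus that in WT mice (right), each with its 95% interval; black marks an adjusted p under 0.05. Pdgfra after CSDS, at -0.21, is the single black point.

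The difference between the CSDS effects of the genotypes was tested directly. No member passed, where 0.148% of all genes (27 of 18263) did, and 1 member, Pdgfra, had an unadjusted p under 0.05. For Pdgfra the CSDS effect in knockout-labelled mice minus that in WT mice was -0.29 ± 0.07 on the log2 scale (95% interval -0.43 to -0.14, unadjusted p = 0.000646, adjusted p = 0.105, limma). It passed when control 10 of both genotypes was left out (-0.33, adjusted p = 0.0123), when WT control 10 alone was left out (-0.34, adjusted p = 0.0064) and with array quality weights (adjusted p = 0.0322). Of 12 fibroblast markers, 11 were lower in this contrast at an unadjusted p of 0.05 (limma), against 1107 of all 18263 genes. Their median was -1.20, and 0 passed the adjusted threshold. The part of fibroblast RNA in the Pdgfra difference was not tested. For Cspg4 the difference was 0.05 (95% interval -0.10 to 0.20) and for Vcan 0.01 (-0.12 to 0.13), so the test did not separate the genotypes for these 2. For Ptprz1 it was -0.07 (-0.19 to 0.06), for Olig1 -0.12 (-0.28 to 0.03) and for Sox8 0.10 (-0.04 to 0.23). Gpr17 had the widest interval, from -0.39 to 0.44.

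Across the 20 libraries, after removal of group means, no pair of members passed the test of co-variation. Of 36 pairs, 25 had a positive Pearson r, the median was 0.18, and 0 passed a Benjamini-Hochberg adjusted p of 0.05 by Pearson or by Spearman (5 and 4 pairs at an unadjusted p of 0.05, permuting libraries within groups). The highest values joined Olig1, Olig2 and Gpr17. Olig2 with Gpr17 had r = 0.58 and rho = 0.45 (permutation p = 0.0816 and 0.0968, adjusted 0.294 and 0.349). Olig1 with Olig2 had r = 0.57 and rho = 0.53 (permutation p = 0.0207 and 0.0289, adjusted 0.294 and 0.301), and r = 0.49 without the 2 libraries farthest from the median of Olig1. Olig1 with Gpr17 had r = 0.56 and rho = 0.48 (permutation p = 0.0338 and 0.0668, adjusted 0.294 and 0.301). Pdgfra, the member that differed most between groups, had r between -0.22 and 0.21 with every other member. C1ql1 with Vcan had the lowest r, -0.46.

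**Figure D4:**
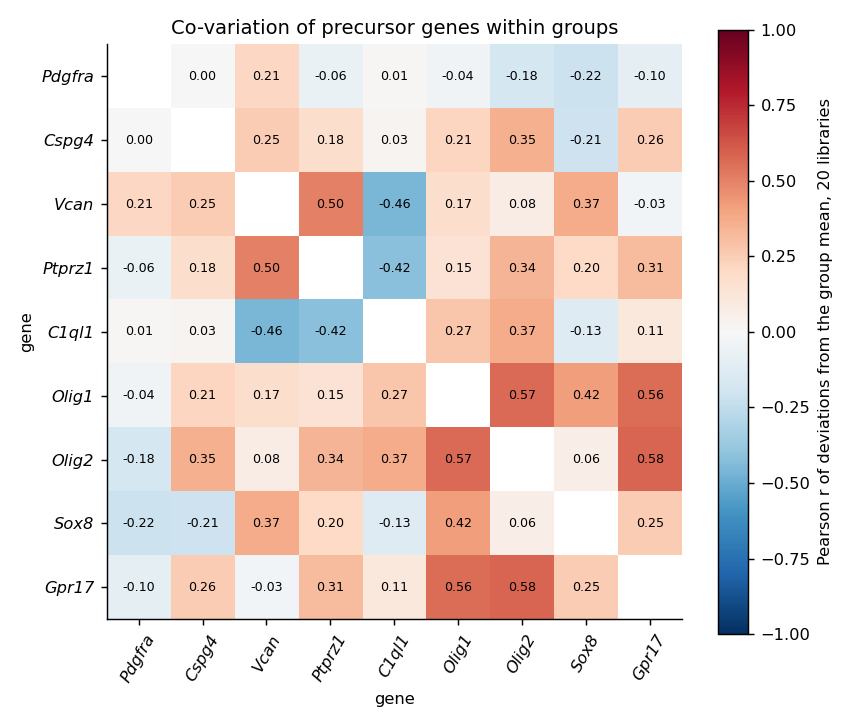
Pearson r between members over 20 libraries, from log2(RPKM + 0.5) with the group mean subtracted; red is positive and blue negative. The highest values, 0.56 to 0.58, join Olig1, Olig2 and Gpr17, and the Pdgfra row is pale.

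Other genes of the lineage were counted in the same way. Among 17 further precursor genes tested, 2 rose and 1 fell in knockout-labelled CSDS and 1 rose and 1 fell in WT CSDS. The shares of all genes were 6.17% risen and 8.88% fallen in knockout-labelled CSDS, and 9.88% risen and 12.5% fallen in WT CSDS. Bcan, which encodes the proteoglycan brevican, rose in both, by 0.16 ± 0.04 (adjusted p = 0.0231, limma) in knockout-labelled mice and 0.12 ± 0.04 (adjusted p = 0.0451) in WT mice, and astrocytes express it too. Cacng4, an AMPA receptor auxiliary subunit, rose by 0.21 ± 0.04 in knockout-labelled CSDS (adjusted p = 0.00835), and Tmem100 fell by 0.42 (adjusted p = 0.00381). Tnr, the matrix gene of tenascin R, fell by 0.15 in WT CSDS (adjusted p = 0.0484). Sox10, the SoxE factor of the whole lineage, had log2 fold changes of -0.07 in knockout-labelled mice (adjusted p = 0.477) and -0.15 in WT mice (adjusted p = 0.226). The list median was 0.00 in knockout-labelled mice and 0.05 in WT mice.

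Of 11 genes of committed oligodendrocytes, 0 passed in knockout-labelled CSDS (limma; 0 higher and 2 lower at an unadjusted p of 0.05), and 1 rose in WT CSDS, Itpr2, an intracellular calcium channel (0.17 ± 0.05, adjusted p = 0.0458). Over all genes, 6.17% rose and 8.88% fell in knockout-labelled CSDS, and 9.88% rose and 12.5% fell in WT CSDS. Of 20 myelin genes 1 fell in knockout-labelled CSDS, Ugt8a, the galactolipid synthesis enzyme (-0.24 ± 0.05, adjusted p = 0.0159). In WT CSDS 0 myelin genes rose and 5 fell: Ermn (-0.52 ± 0.09, adjusted p = 0.00281), Trf, which encodes transferrin (-0.24 ± 0.05, adjusted p = 0.00514), Myrf, the transcription factor of myelin genes (-0.30 ± 0.06, adjusted p = 0.00704), Hapln2 (-0.43 ± 0.11, adjusted p = 0.0184) and, outside the rule for naming, Mobp (-0.30 ± 0.09, adjusted p = 0.0319). The myelin median was 0.01 in knockout-labelled mice and -0.15 in WT mice. Mbp, which encodes myelin basic protein, had log2 fold changes of -0.02 in knockout-labelled mice (adjusted p = 0.880) and -0.21 in WT mice (adjusted p = 0.180). The WT myelin values include CSDS 1 and 5, whose 20 genes summed to 930 and 905 RPKM, against 1056 to 1225 RPKM in the other WT CSDS libraries and 1057 to 1344 RPKM in WT controls.

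Of 12 ligands and partners of the members, 3 rose and 1 fell in knockout-labelled CSDS, where 6.17% of all genes rose and 8.88% fell. In WT CSDS 2 rose and 1 fell, where 9.88% of all genes rose and 12.5% fell. The list median was -0.05 in knockout-labelled mice and 0.09 in WT mice. Cntn1, which encodes contactin 1, a neuronal partner of Ptprz1, rose in both, by 0.14 ± 0.03 in knockout-labelled mice (adjusted p = 0.0165, limma) and 0.14 ± 0.03 in WT mice (adjusted p = 0.0158). Ncan, the proteoglycan neurocan, rose by 0.17 ± 0.05 in knockout-labelled mice (adjusted p = 0.0492) and 0.21 ± 0.03 in WT mice (adjusted p = 0.00226). Adgrb3, the receptor for C1q-like proteins, rose in knockout-labelled CSDS (0.17 ± 0.04, adjusted p = 0.017), where C1ql3 fell by 0.13 (adjusted p = 0.0478). Hapln4, a link protein of matrix, fell by 0.18 in WT CSDS (adjusted p = 0.0145).

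Of 12 growth factor genes and receptors, 0 passed in knockout-labelled CSDS (limma). At an unadjusted p of 0.05, 0 were higher and 4 lower, against 2436 and 3100 of all 18259 genes. In WT CSDS 3 fell, the bone morphogenetic protein receptor gene Bmpr2 (-0.27 ± 0.05, adjusted p = 0.003), the insulin-like growth factor receptor gene Igf1r (-0.20 ± 0.04, adjusted p = 0.00819) and Fgfr1 (-0.14 ± 0.03, adjusted p = 0.00826), while Pdgfra rose. Of 14 lineage regulators, 0 rose in either genotype, where 6.17% of all genes rose in knockout-labelled CSDS and 9.88% in WT CSDS. The shares of all genes that fell were 8.88% and 12.5%. In knockout-labelled CSDS Hes1, a Notch target that holds progenitors undifferentiated, fell by 0.49 (adjusted p = 0.00514) and Id4 by 0.25 (adjusted p = 0.0199). In WT CSDS 4 fell, Id2 by 0.22 (adjusted p = 0.00263), Hes1 by 0.33 (adjusted p = 0.00312), the Notch ligand gene Dll1 by 0.21 (adjusted p = 0.0132) and Notch1 by 0.13 (adjusted p = 0.0309). Other cells also express these regulators.

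Of 10 cell division genes, 7 were tested in knockout-labelled mice and 6 in WT mice. In each genotype 1 fell, where 8.88% of all genes fell in knockout-labelled CSDS and 12.5% in WT CSDS. Ccnd1 fell by 0.24 in knockout-labelled CSDS (adjusted p = 0.00688, limma) and Pcna by 0.13 in WT CSDS (adjusted p = 0.0297). Mki67, a marker of dividing cells, averaged 0.55 ± 0.08 RPKM in knockout-labelled CSDS libraries and 0.49 ± 0.04 RPKM in knockout-labelled controls. It averaged 0.45 ± 0.09 RPKM in WT CSDS libraries and 0.40 ± 0.02 RPKM in WT controls, under the filter there.

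Between genotype labels the other genes that passed, besides Lum, were these, where 2.24% of all genes passed after CSDS and 3.95% among controls. After CSDS, Trf was higher in knockout-labelled mice (0.37 ± 0.05, adjusted p = 0.00016, limma) and so was Hapln4 (0.21 ± 0.05, adjusted p = 0.0237). Among controls C1ql2 (0.44 ± 0.09, adjusted p = 0.00868), the committed oligodendrocyte gene Rras2 (0.18 ± 0.04, adjusted p = 0.0117) and the myelin gene Opalin (0.30 ± 0.08, adjusted p = 0.0358) were higher in knockout-labelled mice, as were Cldn5 (0.35 ± 0.09, adjusted p = 0.0282), Tagln (0.65 ± 0.17, adjusted p = 0.0334) and Aqp4 (0.23 ± 0.06, adjusted p = 0.0318). For Tagln the CSDS effect in knockout-labelled mice minus that in WT mice was -1.20 ± 0.24 (adjusted p = 0.0498). Of 8 neuron markers 2 rose and 1 fell in knockout-labelled CSDS, and 0 rose and 1 fell in WT CSDS. Of 8 microglia markers 0 rose and 1 fell in knockout-labelled CSDS, and 2 rose and 0 fell in WT CSDS. The shares of all genes were 6.17% risen and 8.88% fallen in knockout-labelled CSDS, and 9.88% risen and 12.5% fallen in WT CSDS. Snap25 of neurons and Cx3cr1 of microglia did not pass in any of the 5 comparisons.

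**Figure D5:**
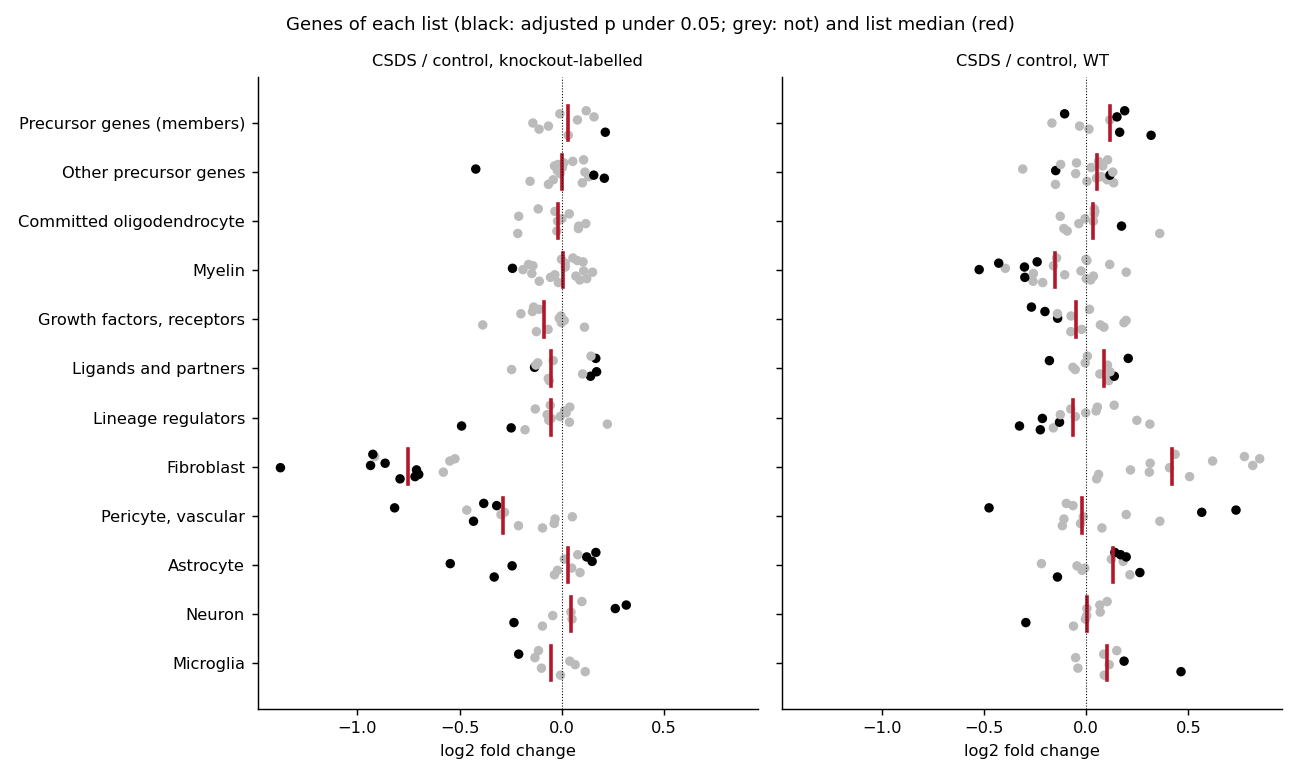
Log2 fold change of CSDS over control for the tested genes of each list drawn, in knockout-labelled mice (left) and WT mice (right). Cell division genes are not drawn. Black marks an adjusted p under 0.05 and the red bar is the list median. The member median is 0.03 on the left and 0.12 on the right, and fibroblast markers have the widest shift between panels, -0.76 and 0.42.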

How the data were processed

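RNA of mouse hippocampi was extracted with a lipid tissue kit and made into unstranded poly(A) TruSeq V2 libraries, per the labels' protocols; the submitters' processing notes name STAR and mm10. The authors deposited 1 table per genotype with RPKM for each library, and per the file headers a log2 fold change (control over CSDS, by its sign against their means), a mean log2 abundance, the statistic of a likelihood ratio test (a score here), its p-value and the FDR, all from edgeR. Their mean control RPKM includes the libraries of conflicting labels. The abundance column was identical in both tables, so libraries of both were compared on 1 scale. All library columns could be mapped.

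Read depth was estimated from 11551 single-exon genes, where 93.7 to 95.0% of values were within 0.05 of a whole read. Values were tested as log2(RPKM + 0.5) with limma 3.58.1 (R 4.3.3; trend, two-sided, Benjamini-Hochberg over all genes with a mean of at least 0.5 RPKM), within each table for CSDS and over 20 libraries for genotype and its interaction; the steps were tested on simulated data. Correlations used 100000 permutations within groups. The text names all members and 1 defining marker of most lists. In the lists of lineage genes, signals, partners, regulators and cell division it also names the up to 4 genes of smallest adjusted p. Of the fibroblast, vascular, astrocyte, neuron and microglia markers, not all genes that passed are named. The members and lists were chosen with earlier results of these data known. The labels number the mice and say no more of their source, so the spread behind each p-value may be partly technical. Promoters are from RefSeq. No 2 libraries were identical; the closest pair, WT CSDS 1 and 5, differed by more than sampling noise (chi-square per degree of freedom 1.137 over 1276 genes, p = 0.000441). Other pseudocounts, filters, centring, weights, label readings, blocks, scopes of the fit and left-out libraries were tried.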

Additional observations from a re-analysis of the deposited data

How the results depend on the processing

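No member reversed a called direction under any alternative, and of 1215 values of single members 1163 stayed on their side of the threshold, 44 lost it and 8 gained it. The count of members called in WT CSDS, 5, was 3 with no filter on low values, 2 with WT 9B counted as CSDS, 3 with WT CSDS 1 and 5 averaged as 1 library (chosen after seeing the data), and 3 to 4 when each library was left out. The count in knockout-labelled CSDS, 1, was 0 with no filter, 2 with libraries centred on their medians, 0 with the conflicting libraries counted as CSDS and 3 with them counted as control, 2 in a fit over all 4 groups, and 0 to 2 when each library was left out. For the genotype difference in the CSDS effect, 0 members became 1 (Pdgfra) with array quality weights and 1 without control 10 of both genotypes, and 0 to 1 when each library was left out. For knockout-labelled against WT after CSDS, 1 (Pdgfra) became 0 with no filter, 0 with the conflicting libraries counted as CSDS, 0 with WT CSDS 1 and 5 averaged, and 0 to 1 when each library was left out. Among controls and for co-variation the count was 0 in all alternatives run. With no filter more genes were tested; the cause of the other changes was not tested. The share of all genes called with the conflicting libraries as CSDS was 0.784% in knockout-labelled mice and 6.79% in WT mice.

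The labels do not say that a number shared by the genotypes marks a shared batch, and not every pair of same-numbered libraries deviated together. Their deviations correlated between -0.005 and 0.097 after CSDS; among controls the values were 0.21, 0.304 and 0.371 for numbers 6, 8 and 10 and -0.087 and -0.107 for 7 and 9. Of the 10 pairs, 5 matched their own number best, and knockout-labelled control 10 was closer to WT control 10 than to any library of its own group (SD of log2 differences 0.183). With the number as a replicate block the count after CSDS was 0 (Pdgfra, adjusted p = 0.0596), with no other count changed. Read number limits the precision of C1ql1 most.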

Other observations

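WT CSDS 1 and 5, which had the lowest Gpr17, were also low in genes of later oligodendrocytes; the genes named here were picked with their values in view. Enpp6, expressed by newly formed oligodendrocytes, had 0.961 and 0.836 RPKM in these 2 libraries, against 1.28 to 1.61 RPKM in the other 3 WT CSDS libraries. Mbp had 198 and 189 RPKM, against 229 to 259 RPKM. Olig2 had 7.21 and 6.23 RPKM, against 7.92 to 8.26 RPKM. Members of the earlier stage were mixed. Cspg4 had 2.56 and 2.48 RPKM, against 2.58 to 2.79 RPKM, and C1ql1 3.22 and 2.72 RPKM, against 3.31 to 3.79 RPKM, so both were lowest in these libraries too. Pdgfra, Vcan and Ptprz1 were not: Pdgfra had 11.4 and 11.6 RPKM, against 11.2 to 12.04 RPKM, Vcan 2.18 and 2.31 RPKM, against 2.11 to 2.17 RPKM, and Ptprz1 34.4 and 34.6 RPKM, against 34.1 to 35.8 RPKM. The summed level of the 9 members was 113 and 111 RPKM, against 124 RPKM in each of the other 3. No test was made of this split, and these 2 libraries were the most alike of all.

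In the 3 libraries whose title and treatment field differ, Pdgfra lay within or below the range of the controls of the same genotype. It was 8.94 RPKM in knockout-labelled 10B, 8.78 RPKM in knockout-labelled 11 and 8.40 RPKM in WT 9B. Gpr17 was 12.1, 11.4 and 10.7 RPKM in the same order, and Cspg4 was 2.10, 1.89 and 2.10 RPKM. Their 12 fibroblast markers summed to 47.9, 49.8 and 43.8 RPKM.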
